A study of Drosophila melanogaster with 4 samples.

Results

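The cytosolic translation machinery was followed in the heads of male Oregon-R flies, a wild type strain of Drosophila melanogaster, fed with gabapentin. Its members were all cDNA clones on the array whose single gene symbol, in its current form, begins with RpL, RpS, eIF or eEF, so that mitochondrial ribosomal proteins (mRpL, mRpS) are left out. This gave 68 clones of 53 genes, out of 13824 clones, of which 7558 have 1 gene symbol. They hold 22 clones of large subunit proteins, 10 of small subunit proteins, 27 of initiation factors and 5 of elongation factors. The last 4 clones match by name only: RpL7-like, with 2 clones, RpL24-like and RpLP0-like resemble ribosomal proteins in sequence, and they were kept out of the 4 classes.

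Gabapentin, an anticonvulsant and analgesic, was given in the food at 16 mg/ml for 3 days to unmated males aged 10 to 11 days, kept 30 to a vial. Control males of the same strain and age were kept on normal food for the same time. RNA of pooled heads from both foods was hybridised together on each of 4 arrays with 2 colours, which are the biological replicates. The gabapentin pool was labelled with Cy5 on the first 2 arrays (1 and 2) and with Cy3 on the dye-swapped ones (3 and 4). A head pool holds many cell types, so that fewer cells of a type and less RNA per cell cannot be told apart.

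The ribosome is built of a small subunit, which decodes the message, and a large subunit, which joins amino acids. Initiation factors (eIF) bring the small subunit and the first tRNA to the start of a message, and elongation factors (eEF) deliver tRNAs and move the ribosome along. Messages for ribosomal proteins are among the most abundant in most animal cells, and their levels usually move together with growth and nutrient signals such as those through TOR.

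The values were read as log2 ratios between the channels of an array, a base inferred from their size, and they give no level of a transcript. Array medians lay between 0.52 and 1.14 and not at 0, so each array's median over all its clones was subtracted, and values below are log2 units above or below that median. The labels do not state whether the columns of arrays 3 and 4 are Cy5 over Cy3 or had already been turned to gabapentin over normal food. Both readings are therefore given, and neither sets a settled direction. In the turned reading the signs of arrays 3 and 4 were reversed, and in the deposited reading all columns were used as they stand. Values, class medians and ranks on single arrays are given as deposited. Those of arrays 3 and 4 lie on the other side of the median in the turned reading. Between 668 and 2170 clones had a value on an array, the fewest on array 4. Among marker clones, a value was found for 6 of 7 of photoreceptors, 1 of 3 of neurons, 1 of 1 of glia, 3 of 4 of muscle, 2 of 8 of fat body, 0 of 3 of testis and 0 of 2 of the accessory gland. As 29.1% of all clones with 1 symbol had one, the low counts say little.

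Translation clones had values more often than clones with a symbol in general, and RpL32 stood apart from them. A value on at least 1 array was found for 30 of the 68 clones (44.1%), against 29.1% of the clones with 1 symbol. For 13 clones (19.1%) there were values on 3 or 4 arrays, against 5.91% of the clones with 1 symbol. RpL32, a large subunit protein whose transcript is a common reference in fly work, is represented by 10 clones, and none of these had a value on any array. By class, 9 of 22 large subunit clones (40.9%) had a value, 5 of 10 small subunit clones, 12 of 27 of initiation factors (44.4%) and 3 of 5 of elongation factors (60.0%). The large subunit thus had the lowest share of the 4 classes, with its 10 RpL32 clones among the 13 without a value; its other clones had values in 9 of 12 cases (75%), a split made after the values were seen. The spot filter of the authors drops saturated spots as well as dim or uneven ones, and its criteria cannot be separated here, so a clone without a value is not one without a transcript.

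**Figure D1:**
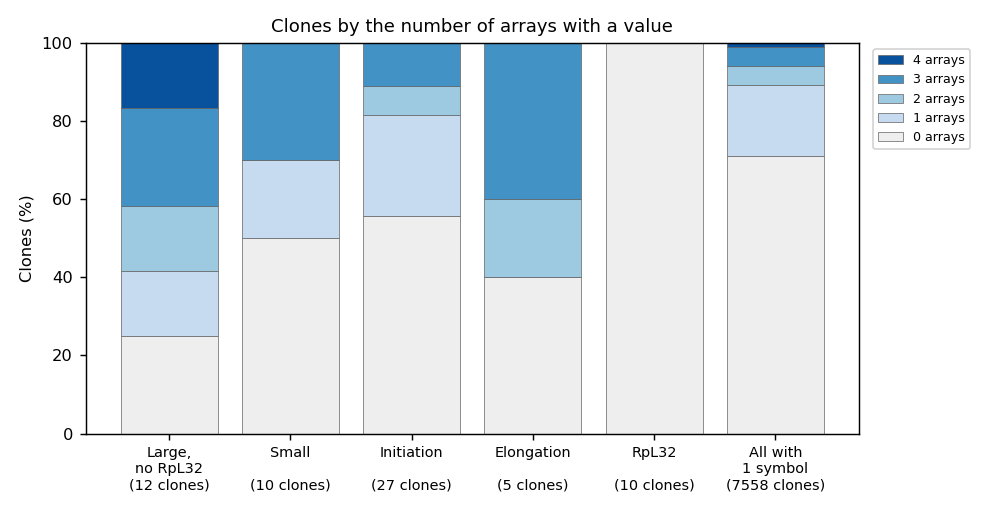
Share of clones (in %, vertical axis) with a value on 0, 1, 2, 3 or 4 arrays, for the 4 classes, for RpL32 and for the 7558 clones with 1 symbol. RpL32 has 10 clones at 0 arrays; 75% of the other large subunit clones have a value (40.9% with RpL32 counted), against 29.1% of clones with 1 symbol.

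Among genes without a value were RpL28, RpL34a and RpLP1 of the large subunit and RpS5b, RpS10a, RpS19b and RpS20 of the small one. Initiation factors without a value included the helicase eIF4A, its partner eIF4B, the GTPase eIF5B, and the a, c and k subunits of eIF3. The clones of RpL7-like and RpLP0-like had none, and RpL24-like, whose yeast counterpart helps to build the large subunit, had 0.28 on array 1 alone.

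In the columns as deposited, large subunit proteins lay above the array median on nearly every array. RpL27 had 0.44, 0.50 and 0.49 on arrays 1, 2 and 3, the most even of all translation clones on 3 or more arrays. RpL15 had 0.21, 0.32 and 0.72 there. RpLP0, the base of the stalk that recruits the GTPase factors, had 0.12, 0.26 and 0.51.

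All of these values were above 0, and for RpL15 and RpLP0 that of array 3 was the highest. RpL39, one of the smallest ribosomal proteins, had 0.27, 0.15, 0.66 and 0.26 on arrays 1 to 4. RpL17 had 0.50, 0.15, 0.49 and -0.05, so that its only value under the median came from array 4. These are the 2 translation clones with a value on all 4 arrays.

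RpL29 and RpL23, also of the large subunit, had values on arrays 2 and 3 alone. RpL29 had 0.47 and 0.52, which are close to each other, and RpL23 had -0.01 and 0.83, which are not. RpL3, a core protein near the peptidyl transferase centre, had 0.14 on array 1. A second clone of RpL39 had 0.37 on array 4, where the first had 0.26 with its duplicate spots 0.75 apart.

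Small subunit proteins were measured on at most 3 arrays. RpS7 had 0.35, 0.14 and 0.37 on arrays 1, 2 and 3. The first clone of RpS15Ab had 0.44, 0.10 and 0.31, and the second -0.02, 0.02 and 0.33. RpS15Ab belongs to a pair of closely related genes with RpS15Aa, and whether its clones also bound the partner's RNA was not tested.

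The clones of RpS15Ab thus differed by 0.46 on array 1 and by 0.08 or less in size on the other arrays. RpS12 had -0.13 on array 2 and RpS28b -0.22 on array 1, the lowest ribosomal protein values, each from 1 array. No small subunit clone had a value on array 4.

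**Figure D2:**
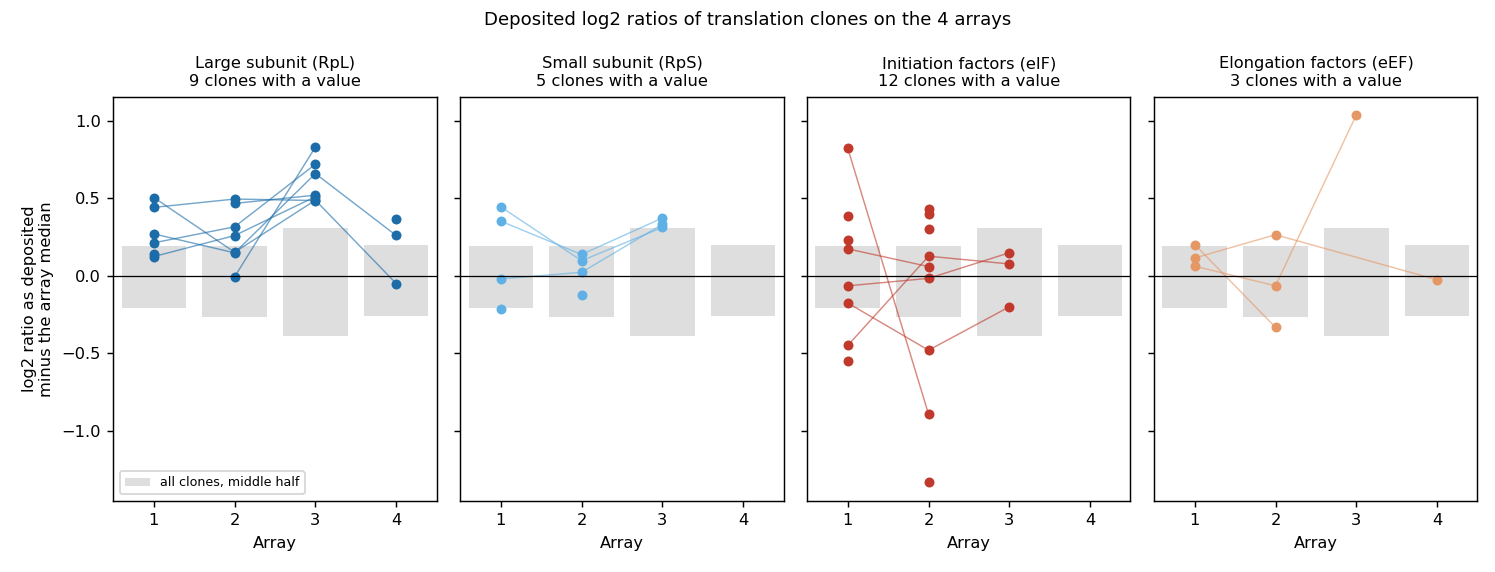
Deposited log2 ratios minus the array median (vertical axis) on arrays 1 to 4 (horizontal axis) for every clone with a value, in 1 panel for each class; lines join the values of a clone and grey boxes span the middle 50% of all clones on that array. All 10 ribosomal protein values on array 3 lie above the grey box, at 0.31 to 0.83, and the initiation factors scatter from -1.33 to 0.82 over arrays 1 to 3.

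Taken by class and as deposited, the large subunit had medians of 0.24, 0.26, 0.52 and 0.26 on arrays 1 to 4, over 6, 7, 7 and 3 clones. The small subunit had 0.17, 0.06 and 0.33 on arrays 1 to 3, over 4, 4 and 3 clones. Over all clones these medians are 0 by construction. The large subunit median exceeded that of the small subunit by 0.08, 0.20 and 0.19 on arrays 1, 2 and 3. Over the 8 ribosomal protein clones with a value on each of these arrays, the difference was -0.08, 0.16 and 0.18, so its sign on array 1 rests on which clones are used.

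Clones with a value on several arrays lay above the median in general. The 764 clones with a value on each of arrays 1, 2 and 3 had medians of 0.08, 0.09 and 0.16. The 8 ribosomal protein clones among them had 0.31, 0.15 and 0.49, which is above all 3. The 4 factor clones, of which 2 are eIF4G1, had -0.12, -0.04 and 0.11, which is below all 3. Over every factor clone with a value (11, 12 and 4), the factor medians were 0.11, 0.02 and 0.11, so the sign on arrays 1 and 2 rests on the clones used. The ribosomal protein median exceeded the factor median by 0.43, 0.19 and 0.37 over complete clones and by 0.13, 0.13 and 0.39 over all with a value. Ribosomal proteins were also spread less: their SD across clones was 0.18, 0.15 and 0.15, against 0.25, 0.31 and 0.40 for the 764 clones. The 4 factor clones had 0.22, 0.26 and 0.54, so on arrays 1 and 2 they too were spread less than the 764. As deposited, 6 of 8 ribosomal protein clones on 3 or more arrays were above the median on every array with a value, against 220 of 854 clones in all (25.8%). With array 3 turned, all 8 fall below the median there. These figures describe clones chosen with earlier results known, and no test is attached to them.

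**Figure D3:**
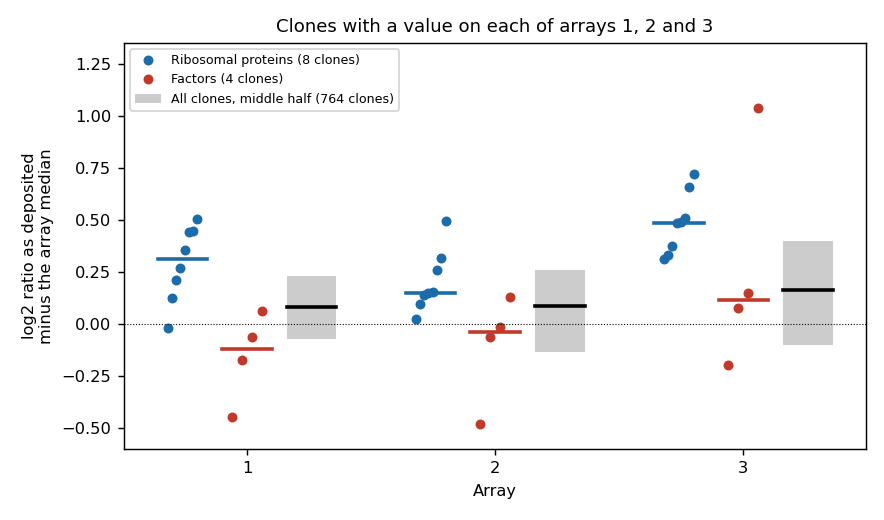
Log2 ratios as deposited minus the array median (vertical axis) for clones with a value on each of arrays 1, 2 and 3; points are clones, coloured bars their medians, and grey boxes the middle 50% of all 764 such clones with their median in black. Ribosomal protein medians of 0.31, 0.15 and 0.49 lie above the black bars at 0.08, 0.09 and 0.16, and the medians of these 4 factor clones, -0.12, -0.04 and 0.11, lie below them; over all factor clones with a value they are 0.11, 0.02 and 0.11.

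In ranks of the deposited values, the median ribosomal protein stood above 80.1%, 69.4%, 86.8% and 80.4% of all clones on arrays 1 to 4. The median factor stood above 65.5%, 52.8% and 58.8% on arrays 1, 2 and 3. Array 3 spread its clones most, with an interquartile range of 0.69 against 0.40 on array 1, 0.46 on array 2 and 0.46 on array 4. The clones ranked differ between arrays (10, 11, 10 and 3 ribosomal protein clones), and the part of the wider spread of array 3 in its higher values was not tested.

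Initiation factors showed no common position. eIF4G1, the scaffold that joins the cap-binding protein to the helicase, is represented by 2 clones. The first had -0.18, -0.48 and -0.20 on arrays 1, 2 and 3. As deposited, it was the only tested translation clone below the median on every array with a value. The second had -0.45, 0.13 and 0.08.

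The 2 clones of eIF4G1 differed by -0.61 on array 2, first minus second, which is larger than either value. eIF2Bbeta, a subunit of the exchange factor that recharges eIF2 with GTP, stayed close to the median at -0.06, -0.02 and 0.15. eIF3i, a subunit of the large complex that gathers initiation factors on the small subunit, had 0.17 and 0.06 on arrays 1 and 2. eIF2A, a factor that can place the first tRNA independently of eIF2, had 0.82 on array 1 and -0.89 on array 2.

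The 2 arrays of eIF2A carry gabapentin RNA in the same dye, so no reading brings these values together, and its duplicate spots were 0.98 apart on array 2. The other initiation factors had 1 array each. The lowest of them was eIF4H2, a helper of the helicase, at -1.33 on array 2, with duplicate spots 1.53 apart. The highest was eIF3g1 at 0.43 on array 2, with spots 0.14 apart. On array 1, eIF3f1 had 0.38, eIF4E3, a paralogue of the cap-binding protein, had 0.23, and eIF2beta, a subunit of the factor that carries the first tRNA, had -0.55 with spots 1.72 apart. On array 2, eIF3b had 0.40 and eIF3l 0.31.

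The initiation class had medians of 0.05, 0.06 and 0.08 on arrays 1, 2 and 3, over 8, 9 and 3 clones, and no value on array 4. On array 1, 4 of its 8 values were above 0, and on array 2, 5 of 9.

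Elongation factors were few. eEF1alpha2, which delivers tRNAs to the ribosome, had 0.11, 0.27 and -0.03 on arrays 1, 2 and 4. Its second clone had no value, and whether the measured one also bound RNA of the related eEF1alpha1 was not tested. eEF1delta, a subunit of its exchange factor, had 0.20 and -0.33 on arrays 1 and 2.

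eEF5, known earlier as eIF5A, helps the ribosome through difficult stretches such as runs of proline. It had 0.06, -0.06 and 1.04 on arrays 1, 2 and 3. The value of array 3 was the highest of all translation clones, above 98.8% of the clones on that array, and its duplicate spots were 0.29 apart there. Arrays 1 and 2, with gabapentin in the other dye, showed nothing of the kind, and eEF5 had no value on array 4.

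No translation clone passed the test for a difference between gabapentin and normal food in either reading. The test was run over all 854 clones on 3 or 4 arrays (limma, Benjamini-Hochberg adjusted p under 0.05) and called 0 of them in the turned and 0 in the deposited reading, a background of 0%. Of the 13 translation clones, 0 had an unadjusted p under 0.05 in the turned reading and 3 in the deposited one, against 19 (2.22%) and 130 (15.2%) of all clones tested. A one-class statistic of the SAM type, the kind of test the study used, called 0 translation clones in either reading, and 1 and 0 of all clones.

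In the turned reading the ribosomal proteins lay on both sides of 0, with 4 of 8 clones positive and a median of 0.00, against 0.00 for all 854 clones. RpL27 had the highest mean among them, 0.15 ± 0.21 (SE moderated by limma, n = 3 arrays, 95% interval -0.31 to 0.61), and RpL39 the lowest, -0.13 ± 0.17 (n = 4). The 5 factor clones had a median of -0.13, with 1 of 5 positive. eEF5 stood lowest at -0.35 ± 0.22 (n = 3, interval -0.82 to 0.13), a mean that was 0.00 without array 3 and -0.55 without array 1, and eEF1alpha2 was the positive one at 0.14 ± 0.18 (n = 3). The limma adjusted p was 0.999 for each of the 13 clones.

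These means rest on opposed signs, since a clone above the median on arrays of both orientations cancels when 1 orientation is turned. When 1 array was left out, clones on at least 2 of the others were used, so the clones differ from the 8 above as well. Without array 3, the ribosomal protein clones had a median of 0.24 and 8 of 8 were positive, against 55.7% of all clones. Without array 1 the median was -0.12, with 1 of 10 positive (47.1% of all clones), without array 2 it was -0.10, with 2 of 8 (42.4%), and without array 4 it was -0.03, with 4 of 10 (51.2%).

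In the deposited reading the means of all 8 ribosomal protein clones were above 0 and had a median of 0.29, against 0.09 and 66.7% positive among all 854 clones. RpL27 stood at 0.47 ± 0.14 (SE, n = 3 arrays, interval 0.17 to 0.78), with a limma adjusted p of 0.209. This is a 1.39-fold difference from the array median if the inferred base of log2 holds. RpL15 stood at 0.42 ± 0.15 (n = 3) and RpL39 at 0.33 ± 0.13 (n = 4), both with an adjusted p of 0.244. These are the 3 translation clones with an interval above 0, and none passes over all clones. An unadjusted p under 0.05 was found for 2 of 13 when arrays were centred on the clones tested, against 12.3% of all clones tested. It was found for 4 of 13 with the position trend removed (18.1% of all) and 1 of 16 without array 3 (10.1%). Centring on the clones tested also lowered the ribosomal protein median to 0.19, with 8 of 8 still positive, against 46.5% of all clones. RpLP0 at 0.30 ± 0.15, RpS7 at 0.29 ± 0.14, the first RpS15Ab clone at 0.28 ± 0.14 and RpL17 at 0.27 ± 0.13 had adjusted p-values between 0.364 and 0.373. The second RpS15Ab clone stood at 0.11 ± 0.15. Without array 3, RpL15 stood at 0.26, RpLP0 at 0.19 and the second RpS15Ab clone at 0.00.

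The factors in the deposited reading had a median of 0.02, with 3 of 5 positive, or -0.08, with 2 of 5, when arrays were centred on the clones tested. eEF5 stood at 0.34 ± 0.21, eEF1alpha2 at 0.12 ± 0.14, eIF2Bbeta at 0.02 ± 0.14, and the eIF4G1 clones at -0.29 ± 0.14 and -0.08 ± 0.16 (SE, n = 3 arrays each), with limma adjusted p-values between 0.373 and 0.961. The mean of eEF5 was 0.00 without array 3, so that array decides it. Without array 1 the mean of the second eIF4G1 clone was 0.10, and the other means of this reading that changed sign when 1 array was left out were those of eIF2Bbeta and eEF5.

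**Figure D4:**
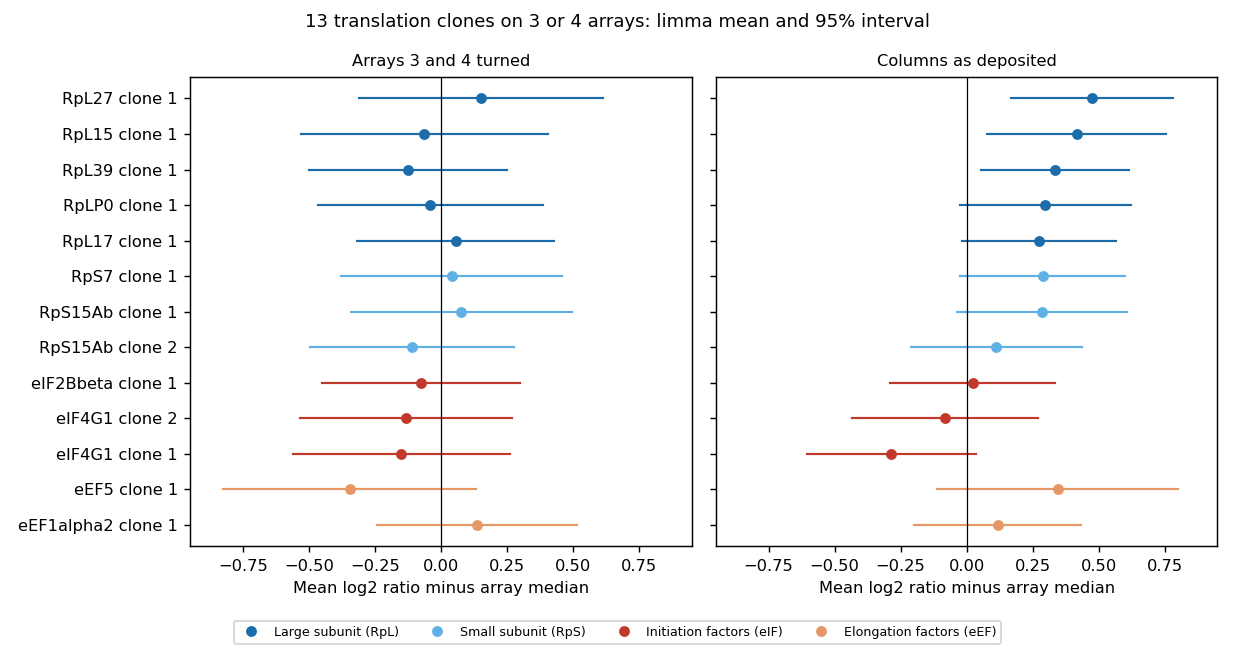
Mean log2 ratio minus the array median (horizontal axis) for the 13 translation clones on 3 or 4 arrays, with the 95% interval from limma, with arrays 3 and 4 turned (left) and as deposited (right). In the deposited reading all 8 ribosomal protein clones are positive, with intervals above 0 for RpL27, RpL15 and RpL39; in the turned reading every interval includes 0.

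Intervals extended 0.37 to 0.48 log2 units to either side of a translation clone's mean in the turned reading and 0.28 to 0.46 in the deposited one. A mean within that distance of 0 cannot be told from 0 with these arrays, even before adjustment over all clones.

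The array pairs of 1 dye orientation were also tested alone, since each runs 1 way in either reading. In them gabapentin and dye cannot be told apart. On arrays 1 and 2, 0 of 16 translation clones passed (limma adjusted p under 0.05), against 20 of 1096 clones in all (1.82%). An unadjusted p under 0.05 was found for 1 of the 16, against 10.4% of all clones. The 8 ribosomal protein clones all had positive means there and a median of 0.25, against 58.0% positive and 0.04 for all 1096 clones. Of the 8 factor clones 2 were positive, with a median of -0.04. The ribosomal count was 7 of 8 when centred on the clones tested (47.3% of all clones positive) and with the position trend removed (61.4%). The factor count was 4 of 8 with arrays scaled to 1 spread (57.9%). RpL27 was highest at 0.47 ± 0.18 (SE, n = 2 arrays, limma adjusted p = 0.266). On arrays 3 and 4, RpL39 at 0.46 ± 0.27 and RpL17 at 0.22 ± 0.27 (n = 2 each) were the 2 translation clones measured on both. Their intervals extended 0.52 to either side, as did the median interval of all 235 clones. The SE of this pair was thus shared over clones and does not measure a clone's own spread. Neither passed (limma adjusted p of 0.454 and 0.825), and 8 of 235 clones in all did (3.4%). An unadjusted p under 0.05 was found for 0 of the 2, against 13.2% of all clones.

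Without subtracting array medians, all 13 translation clones passed in the deposited reading, with means from 0.54 to 1.29. So did 97.5% of all clones tested (833 of 854), and the count says nothing particular to translation. On arrays 1 and 2 without that step, all 16 translation clones passed, as did 96.7% of all clones tested, and on arrays 3 and 4 both did, as did 69.8%. In the turned reading with medians left in, 0 of 13 and 0 of 854 clones passed, and 0 of 854 had an unadjusted p under 0.05.

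Of the other genes of protein synthesis, regulators had values most often (6 of 8 clones, 75%), and 3 of them had values on arrays 1, 2 and 3. S6k, the kinase that phosphorylates the small subunit downstream of TOR, had 0.33, 0.09 and 0.30 there. Tctp, a growth-linked protein whose message is regulated with those of ribosomal proteins in mammals, had 0.19, 0.16 and 0.26. pAbp, which binds the poly(A) tail and contacts eIF4G, had 0.12, 0.12 and 0.14.

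All 9 of these values were above the array median as deposited. So were 63.1%, 61.6% and 65.7% of the 764 clones with a value on each of arrays 1, 2 and 3. Those clones had medians of 0.08, 0.09 and 0.16, and pAbp on array 3 was below theirs. None of the 3 genes passed in either reading (limma adjusted p of 0.483 to 0.690 as deposited). Paip1, a partner of pAbp, had -1.48 and -0.44 on arrays 3 and 4, where it passed the test of that array pair as lower than the median at -0.96 ± 0.27 (SE, n = 2 arrays, limma adjusted p = 0.0126). RpL39 and RpL17 had the same SE on this pair, as limma drew it from the spread over all clones. Neither that SE nor the p measures how far apart the 2 values of Paip1 were. With arrays scaled to 1 spread, 0 of 235 clones passed there, Paip1 included. It had no value on arrays 1 and 2. Paip2 had 0.23 and 0.10 on arrays 2 and 3, and Sbds, a ribosome assembly factor, had -0.34 on array 1.

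Mitochondrial ribosomal proteins had a value for 14 of 54 clones (25.9%), near the 29.1% of clones with 1 symbol, and for 1 of them on 3 or more arrays. That 1 was mRpS24, with 0.26, 0.09, 0.39 and 0.16 on arrays 1 to 4 and a mean of 0.22 ± 0.12 (SE, n = 4, limma adjusted p = 0.40) in the deposited reading and -0.05 ± 0.16 (adjusted p = 0.999) in the turned one. Of 16 clones of aminoacyl-tRNA synthetases, the enzymes that charge tRNAs, 4 had a value, each on 1 array, from -2.06 for CysRS-m to 0.38 for ValRS-m. Of 14 ribosome biogenesis clones, 4 had a value, and Nopp140, a nucleolar chaperone, was the only one tested, at 0.06 ± 0.14 as deposited and 0.11 ± 0.17 turned (n = 3). In the readings over all 4 arrays, 0 clones of these 4 lists passed, against 0 of 854 clones in all. Only mRpS24, Nopp140 and 3 regulators had enough arrays for the test, and no synthetase clone did.

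In the columns as deposited, translation clones correlated positively between arrays, which was not tested. Over the 12 translation clones with a value on each of arrays 1, 2 and 3, Pearson's r was 0.51 between arrays 1 and 2, 0.46 between arrays 1 and 3 and 0.48 between arrays 2 and 3. Over all 764 such clones it was 0.16, 0.24 and 0.30. Within the 8 ribosomal protein clones it was 0.28, -0.06 and 0.47. The 12 pool these with 4 factor clones, whose medians were lower on each of the 3 arrays, so a shared order is not established. With array 3 turned, every r that involves it takes the opposite sign, so only r between arrays 1 and 2 is the same in both readings. Clones of an array share its hybridisation and its filter and are not independent replicates.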

How the data were processed

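Spots were scanned and quantified by the authors with GenePix Pro 6.0 and normalized by ratio in Acuity 4.0, per the labels' design text, which also names filters on saturation, flags, evenness and signal-to-noise. The deposited columns, 1 for each array, were read as log2 ratios, a base inferred from the values: the largest size, 9.11, exceeds the 4.82 a scan can reach in log10. If the authors' floor of 100 units held in both channels, the bound is 6.49 in natural log and 9.36 in log2. Without that floor, natural log cannot be told from log2. Duplicate spots in neighbouring rows were averaged. All 136 member spots were matched through Entrez IDs to RefSeq symbols (Release 6 plus ISO1 MT). Members, lists and tests were chosen with earlier results of these data known, and the 3 name-only genes were set apart after the symbols were seen. Named by rule were member clones on at least 2 arrays and the highest and lowest of each class on 1 array; the others on 1 array or none, and genes of other lists, were named after their values were seen. The test, limma 3.58.1 under R 4.3.3, took clones on at least 3 arrays (intercept, eBayes, Benjamini-Hochberg, threshold 0.05), on simulated data first. SE and intervals are those moderated by limma over all clones. Alternatives were other centring, scaling, spot, position and array choices and a SAM-type statistic with all 16 sign changes. The fewer the arrays, the less precise a mean. No sequences are shown, as none were used here. Python 3.11.15, pandas 2.3.3, numpy 2.4.6 and matplotlib 3.10.9 made the tables and figures.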

Additional observations from a re-analysis of the deposited data

Results flagged for a closer look

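Among 14 quantities compared over the 4 arrays, 3 had an array far from the others, where chance gives about 1 in 20. The large subunit median was 0.52 on array 3, against 0.24, 0.26 and 0.26 on arrays 1, 2 and 4. In ranks its median clone stood above 87.4% of all clones on array 3, against 80.1%, 81.5% and 80.4%. The elongation factor median was 1.04 on array 3, where it is eEF5 alone, against 0.11, -0.06 and -0.03 on arrays 1, 2 and 4. Array 4 had 3 ribosomal protein clones with a value, against 10, 11 and 10 on arrays 1 to 3. Over all clones, array 4 also had the fewest values, 668.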

How the results depend on the processing

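No translation clone was called in any centred setting of either reading or array pair. Counts over all clones moved more. Without centring, calls numbered 833 in the deposited reading (13 translation clones), 1060 on arrays 1 and 2 (16) and 164 on arrays 3 and 4 (2). Centred on the clones tested, they were 3, 0 and 5, and with arrays scaled to 1 spread 1, 3 and 0. Removing a position trend along the row order gave 1 in the deposited reading, and SAM gave 1 in the turned one. Leaving out 1 array, which also let in clones on 2 of the other 3 (930 to 1398 clones tested in place of 854), gave 0 to 2 calls in the turned and 0 to 14 in the deposited reading, with 14 without array 1. Each array's ratio already pairs the foods, and no further replicate block could be fitted to 1 group of arrays. The cause of these shifts was not tested.

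A class median was counted as moved when it shifted by more than the SD of that class's medians across arrays. This held for the small subunit on array 1 (0.35 over clones complete on arrays 1 to 3, chosen after seeing the data) and for initiation factors. Classes with a wider SD also shifted. On array 3 the large subunit went from 0.52 to 0.59 when centred on clones with a symbol, and elongation from 1.04 to 0.95 with the trend removed. Over complete clones the initiation medians were -0.18 and -0.0165 on arrays 1 and 2. With the trend removed they were -0.0163 on array 1 and 0.049 on array 3, and centred on clones with a symbol 0.072, 0.077 and 0.15 on arrays 1 to 3.

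Some of the means that changed sign were near 0 and others were not. Without centring, all 13 turned means were above 0, also that of eEF5, the lowest when centred at -0.35. Turned and uncentred, the first and second eIF4G1 clones stood at 0.32 and 0.34, eIF2Bbeta at 0.39, RpLP0 at 0.43, RpL39 at 0.0345, eEF5 at 0.12, RpL15 at 0.41 and the second RpS15Ab clone at 0.36. Scaled, RpLP0 and RpL15 stood at 0.0205 and 0.026. As deposited and uncentred, the eIF4G1 clones stood at 0.54 and 0.74, and eIF2Bbeta at -0.0834 when centred on the clones tested. With 1 array left out, turned means ranged from -0.25 to 0.26 for RpL15, -0.10 to 0.24 for RpL17, -0.0221 to 0.47 for RpL27, -0.26 to 0.0527 for RpL39, -0.19 to 0.19 for RpLP0, -0.55 to -0.00138 for eEF5, -0.12 to 0.24 for RpS7, -0.11 to 0.27 and -0.18 to 0.00138 for the RpS15Ab clones, and -0.33 to 0.0124 and -0.26 to 0.025 for the eIF4G1 clones. Deposited means ranged from -0.00138 to 0.55 for eEF5, -0.0406 to 0.066 for eIF2Bbeta and -0.19 to 0.10 for the second eIF4G1 clone.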
